A study of Mus musculus with 158 samples.

Results

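The Hox genes encode homeodomain transcription factors and lie in 4 clusters of the mouse genome. The 38 genes described here were taken from a list, 10 each of Hoxa and Hoxb and 9 each of Hoxc and Hoxd, out of 21755 protein-coding genes on the autosomes and X chromosome. A gene's window was its annotated body plus 2 kb on both sides, a cluster ran from its first to its last listed gene plus the same flanks, and a start was called open when a DNase-seq hotspot lay within 500 bp of it. Hotspots are stretches of the genome in which DNase I cuts exceed the local background.

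DNA accessibility was mapped in 5 F1 hybrids, B6x129, B6xC3H, B6xCAST, B6xPWK and B6xSPRET. Each had a C57BL/6J mother, and its name gives the strain of the father. C3H/HeJ is, like that of B6x129, a laboratory strain, whereas PWK/PhJ, SPRET/EiJ and CAST/EiJ derive from wild mice. Whole liver, kidney and lung and B cells of femoral bone marrow, purified by depletion of CD43+ and Mac-1+ cells, came from mice of 8 weeks. Organs of several mice were combined, and the 2 to 14 libraries of each hybrid and tissue were pooled before hotspots were called, which gave 20 adult sets, 1 for each hybrid in each of the 4 tissues. From cultured B6xCAST mouse embryonic stem cells (mESCs), 1 DNase-seq and 1 CTCF ChIP-seq set were used, and 17 RNA-seq libraries covered the 4 adult tissues. The 5 sets of a tissue served as its repeats, each a different cross, so the spread between them holds genotype as well as technique.

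Along each cluster the genes share 1 direction of transcription and are numbered by paralog group from the 3′ to the 5′ end. In embryos, low groups are switched on early and towards the head and high groups later and towards the tail, and adult organs keep part of that pattern. Polycomb complexes hold silent Hox genes in a repressed state, and CTCF, a zinc finger protein that bounds chromatin loops, binds between many of the genes.

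The adult sets held between 78387 and 295565 hotspots. Their share of the genome was 2.98% to 4.89% (liver), 2.42% to 3.23% (kidney), 1.66% to 3.68% (lung) and 1.10% to 2.61% (B cells), so the kidney sets were not the widest. Of 5 marker genes for each organ, all were open in every set of their own tissue. The 5 endothelial markers were open in 20 liver, 25 kidney, 23 lung and 8 B cell cases of 25, the 5 mesenchymal markers in 15, 25, 23 and 3, the 5 myeloid markers in 18, 5, 24 and 20, and the 5 T cell markers in 4, 0, 14 and 7. The part of such cells in the tissue differences below was not tested. A whole organ mixes cell types, and an open site in few cells cannot be told apart from a weaker site in many.

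The sequences at which the results turn are shown first. The promoters below, from 250 bases before to 50 after the RefSeq start on GRCm38.p6, belong to 4 genes whose starts were open in all 5 kidney sets and in no other adult set. They lie at chr6:52227321-52227620 for Hoxa9, chr6:52234890-52235189 for Hoxa10 and chr6:52245761-52246060 for Hoxa11, all on the minus strand, and at chr11:96281655-96281954 on the plus strand for Hoxb8. Capitals mark CpG dinucleotides, of which there were 4, 21, 15 and 13.
Hoxa9: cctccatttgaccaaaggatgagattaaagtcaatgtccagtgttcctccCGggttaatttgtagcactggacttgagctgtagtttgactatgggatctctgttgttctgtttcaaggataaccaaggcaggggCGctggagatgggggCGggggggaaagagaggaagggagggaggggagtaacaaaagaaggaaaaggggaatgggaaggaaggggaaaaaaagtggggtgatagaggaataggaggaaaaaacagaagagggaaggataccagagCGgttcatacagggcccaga
Hoxa10: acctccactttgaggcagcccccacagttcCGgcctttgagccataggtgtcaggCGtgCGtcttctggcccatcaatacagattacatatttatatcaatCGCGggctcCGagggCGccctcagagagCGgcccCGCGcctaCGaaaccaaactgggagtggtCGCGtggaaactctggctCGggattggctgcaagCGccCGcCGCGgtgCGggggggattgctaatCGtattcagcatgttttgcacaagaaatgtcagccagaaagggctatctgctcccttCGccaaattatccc
Hoxa11: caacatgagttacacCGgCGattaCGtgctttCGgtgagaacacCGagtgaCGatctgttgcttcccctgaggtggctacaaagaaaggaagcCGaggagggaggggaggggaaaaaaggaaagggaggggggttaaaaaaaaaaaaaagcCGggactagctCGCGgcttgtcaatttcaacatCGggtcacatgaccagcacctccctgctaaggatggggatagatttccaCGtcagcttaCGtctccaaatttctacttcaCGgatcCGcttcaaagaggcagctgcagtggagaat
Hoxb8: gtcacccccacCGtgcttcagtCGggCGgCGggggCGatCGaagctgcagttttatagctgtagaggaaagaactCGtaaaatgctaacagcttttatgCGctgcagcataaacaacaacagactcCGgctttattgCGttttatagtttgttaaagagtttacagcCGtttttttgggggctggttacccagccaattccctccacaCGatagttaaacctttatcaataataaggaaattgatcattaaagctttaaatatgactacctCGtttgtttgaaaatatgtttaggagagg

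The next sequences are CTCF sites of mESCs inside the clusters. All but the last were open in all 20 adult sets, and Hoxb CTCF 6 was open in the 5 kidney sets and in none of the other 15. Sites are numbered along the chromosome within each cluster, and capitals mark the best match to the 14-position CTCF consensus, allowing 2 mismatches. In mm10 they lie at chr6:52257108-52257147 (plus strand) in Hoxa, chr11:96278935-96278974 (plus), chr11:96294683-96294722 (minus) and chr11:96311729-96311768 (plus) in Hoxb, chr15:102966559-102966598 (plus) and chr15:103013689-103013728 (plus) in Hoxc, chr2:74673163-74673202 (minus), chr2:74702382-74702421 (plus) and chr2:74715908-74715947 (plus) in Hoxd, and chr11:96256153-96256192 (minus) for Hoxb CTCF 6. Hoxb CTCF 10 lies in an intron of Hoxb6, Hoxc CTCF 11 in an intron of Hoxc5 and Hoxd CTCF 7 in an intron shared by Hoxd3 and Hoxd4, where an exon of the antisense gene Hoxd3os1 overlaps it. The others lie outside protein-coding genes, with Hoxa CTCF 9 in an exon of a transcript of unclassified type.
Hoxa CTCF 9: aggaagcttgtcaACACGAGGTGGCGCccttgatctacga
Hoxb CTCF 8: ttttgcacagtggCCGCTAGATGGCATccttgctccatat
Hoxb CTCF 10: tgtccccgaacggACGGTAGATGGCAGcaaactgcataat
Hoxb CTCF 12: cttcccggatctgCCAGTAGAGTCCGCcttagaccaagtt
Hoxc CTCF 6: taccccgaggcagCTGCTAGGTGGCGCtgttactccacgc
Hoxc CTCF 11: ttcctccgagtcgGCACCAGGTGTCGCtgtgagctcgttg
Hoxd CTCF 1: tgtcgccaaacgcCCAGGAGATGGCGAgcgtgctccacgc
Hoxd CTCF 6: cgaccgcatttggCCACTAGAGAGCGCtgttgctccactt
Hoxd CTCF 7: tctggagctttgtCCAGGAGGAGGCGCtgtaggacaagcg
Hoxb CTCF 6: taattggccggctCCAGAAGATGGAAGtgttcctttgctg

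The clusters also encode microRNAs, whose starts are described with the noncoding genes. The mature 5p arms follow with the seed, bases 2 to 8, in capitals. miR-10a from Hoxb and miR-10b from Hoxd share 1 seed, and miR-196a, encoded in both Hoxb and Hoxc, shares another with miR-196b from Hoxa.
mmu-miR-10a-5p: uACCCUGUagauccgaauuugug
mmu-miR-10b-5p: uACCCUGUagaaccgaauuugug
mmu-miR-196a-5p: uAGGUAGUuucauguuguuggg
mmu-miR-196b-5p: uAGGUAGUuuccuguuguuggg

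In kidney, hotspots covered far more of every Hox cluster than in the other tissues. In the Hoxa cluster (chr6:52160417-52262880) the kidney sets covered 40.1%, 41.9%, 52.6%, 39.8% and 27.7% of the length in B6x129, B6xC3H, B6xCAST, B6xPWK and B6xSPRET, the order used below, against 1.69% to 19.97% in the other 15 sets. The kidney mean of 40.4% ± 8.83 (SD, n = 5) was 5.87 times the mean of the rest. In the Hoxb cluster (chr11:96192316-96370256) the kidney values were 29.1%, 36.2%, 41.3%, 30.5% and 16.8%, and the rest ran from 1.33% to 12.1%. Their mean of 30.8% ± 9.18 was 7.44 times that of the rest.

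Coverage was lower in the other clusters, with kidney again the highest. The Hoxc cluster (chr15:102919103-103038852) was covered at 10.9%, 14.02%, 17.9%, 18.6% and 7.78% in kidney and at 0.970% to 5.17% elsewhere, a ratio of means of 5.13. For the Hoxd cluster (chr2:74666310-74767142) the kidney sets gave 14.7%, 21.9%, 18.4%, 26.3% and 9.02% and the rest 0.623% to 5.43%, a ratio of 6.65. No kidney set overlapped any other set in any cluster. In each cluster the difference passed the exact permutation test over the 20 sets (two-sided p = 6.45e-05, the smallest this design allows, adjusted p = 0.000258 over 16 tests). B6xSPRET was the lowest of the kidney sets in all 4 clusters, and was also the kidney set with the fewest hotspots, 186061.

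Kidney coverage exceeded what the sets covered genome-wide by a mean of 13.5 times in Hoxa, 10.2 times in Hoxb, 4.57 times in Hoxc and 5.95 times in Hoxd. In liver the same quotients were 1.44, 0.798, 0.786 and 1.16. Among the other 3 tissues, 11 of the 12 pairwise differences did not pass the exact permutation test. Hoxd was the exception, at 4.25% ± 0.753 in liver against 1.56% ± 0.702 in B cells (adjusted p = 0.0147 over 24 tests). Divided by genome-wide coverage, lung also passed against liver in Hoxa and Hoxb, and B cells against liver in Hoxb, all lower in liver. Lung ran from 4.05% to 19.97% in Hoxa, and its B6xCAST set was the highest lung set in all 4 clusters.

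**Figure D1:**
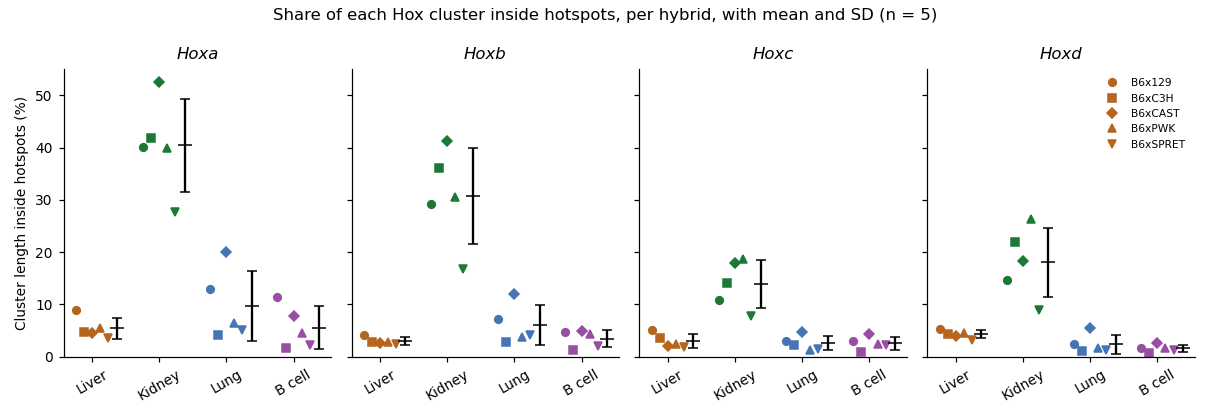
Percentage of each Hox cluster's length inside DNase-seq hotspots (vertical axis) in the 4 tissues (horizontal axis), with 1 symbol per hybrid and the mean and SD of 5 sets in black. The kidney points of Hoxa lie between 27.7% and 52.6%, and no kidney point in any panel reaches down to a point of another tissue.

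The kidney signal formed long blocks rather than isolated sites. Of the 102 steps of 1 kb across Hoxa, 39 were over 50% covered on the mean of the 5 kidney sets, against 1 step each in liver, lung and B cells. The longest run measured 11 kb and spanned the starts of Hoxa9 and Hoxa10. In Hoxb, 54 of 177 steps passed that level in kidney, against 0 in liver and 2 each in lung and B cells. Its longest run, 16 kb, lay beyond Hoxb9 on the side of Hoxb13, from 103.9 kb to 119.9 kb from the low-numbered end, where Mir196a-1 is encoded. The counts for kidney were 11 of 119 steps in Hoxc and 15 of 100 in Hoxd, with longest runs of 3 kb and 5 kb.

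Some single hotspots were wide enough to span neighbouring genes. The widest of all 203372 hotspots of the B6xC3H kidney set, 17484 bp long, covered Hoxb2 and part of Hoxb3 at chr11:96338417-96355900. In B6xSPRET kidney a hotspot of 7603 bp in Hoxb3 held rank 2 by width in its set. Over the 5 kidney sets, 3, 6, 13, 9 and 1 hotspots of at least 3000 bp lay in the clusters. Outside kidney only the B6xCAST lung set had any, 2, although liver sets held 240 to 2457 such hotspots genome-wide and kidney sets 86 to 450.

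**Figure D2:**
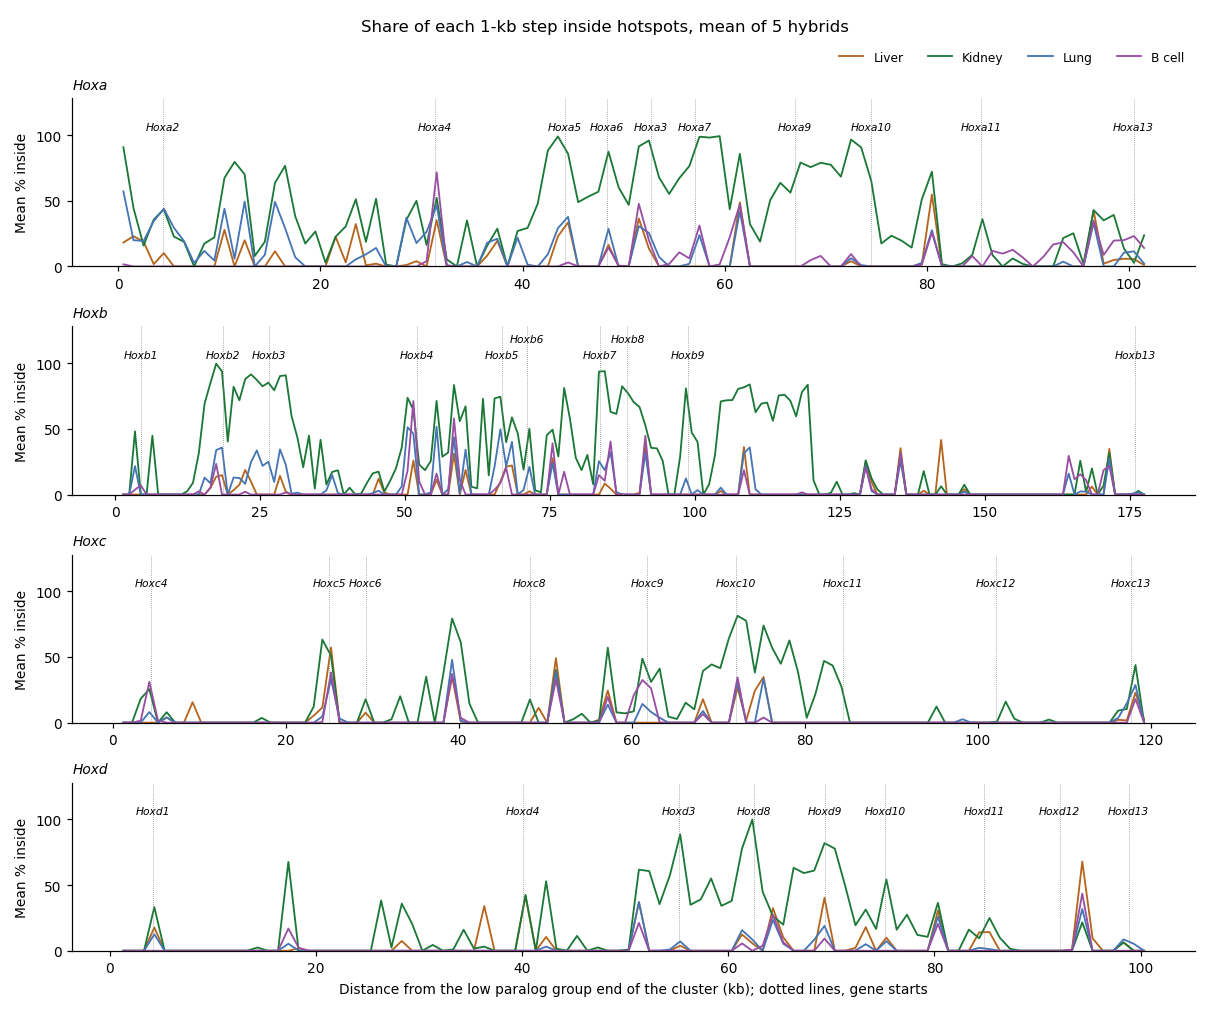
Mean percentage of each 1-kb step inside hotspots over the 5 hybrids (vertical axis) by distance in kb from the low paralog group end (horizontal axis), with gene starts as dotted lines. Kidney stays over 50% for 11 kb around Hoxa9 and Hoxa10 and for 16 kb beyond Hoxb9, where the other tissues show separate peaks.

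Gene by gene, windows of 28 of the 38 members were covered more in kidney than in the other tissues at an adjusted p of 0.05 (exact permutation test, Benjamini-Hochberg over 20663 genes), against 7.61% of all genes tested. The median of kidney minus rest was 21.8 percentage points for the members and −0.0439 for all genes. All but Hoxd12 and Hoxd13 had a positive difference. Neighbouring windows overlap, and the bodies of Hoxa3, Hoxc5, Hoxd3 and Hoxd4 as annotated run across other members, so these are not 28 separate observations. Ranked over all genes by that difference, Hoxb8 held rank 1 at 70.0 points, Hoxb2 rank 3 at 64.5, Hoxa7 rank 6 at 62.9, Hoxa9 rank 11 at 58.8 and Hoxa5 rank 13 at 56.1.

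The level differed between bands of paralog groups, which were not part of the planned tests, so their medians are description. In kidney the median of the members' mean coverages was 40.3% for groups 1 to 3, 40.7% for groups 4 to 8 and 43.0% for groups 9 and 10, but 5.42% for groups 11 to 13. Bands overlapped, with kidney means of 2.36% to 77.0% in groups 4 to 8 and 3.23% to 23.4% in groups 11 to 13. Called higher in kidney were 6 of 7, 12 of 15, 7 of 7 and 3 of 9 members. In the other tissues the same medians lay between 0.997% and 8.88%. The 3 members called in the last band were Hoxa11, Hoxc11 and Hoxc12.

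Open starts drew a similar boundary. In kidney, starts of 28 members were open in all 5 hybrids, against 10 in liver, 10 in lung and 7 in B cells. Across all protein-coding genes the shares were 61.9%, 58.7%, 59.5% and 50.6%, so the kidney share, 28 of 38, stood above its background and the other 3 well below. Starts open in no hybrid numbered 3 in kidney, 17 in liver, 11 in lung and 22 in B cells, beside 29.7%, 29.3%, 27.8% and 38.7% of all genes. These shares are given as description. Summed over hybrids, 156 of 190 kidney start and set pairs were open, with 80 in liver, 90 in lung and 61 in B cells.

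The kidney starts formed unbroken runs. Every listed Hoxa start from Hoxa3 to Hoxa11 was open in all 5 hybrids, as was every Hoxb start from Hoxb2 to Hoxb9, every Hoxc start from Hoxc4 to Hoxc8 and every Hoxd start from Hoxd1 to Hoxd10. At the low end of Hoxa, Hoxa2 was open in 4 kidney sets, and Hoxb1, the lowest member of its cluster, in 0. At the high end, starts fell away between groups 10 and 13. Hoxd11 was open in 3 kidney sets, Hoxc11 in 2, Hoxa13, Hoxb13 and Hoxd13 in 1 each, and Hoxd12 and Hoxc12 in none. Hoxc13 stood apart from that boundary, open in all 5. The runs in other tissues were shorter, Hoxa4 to Hoxa6 in liver, Hoxa4 to Hoxa7 in lung and Hoxb4 with Hoxb5 in every tissue.

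**Figure D3:**
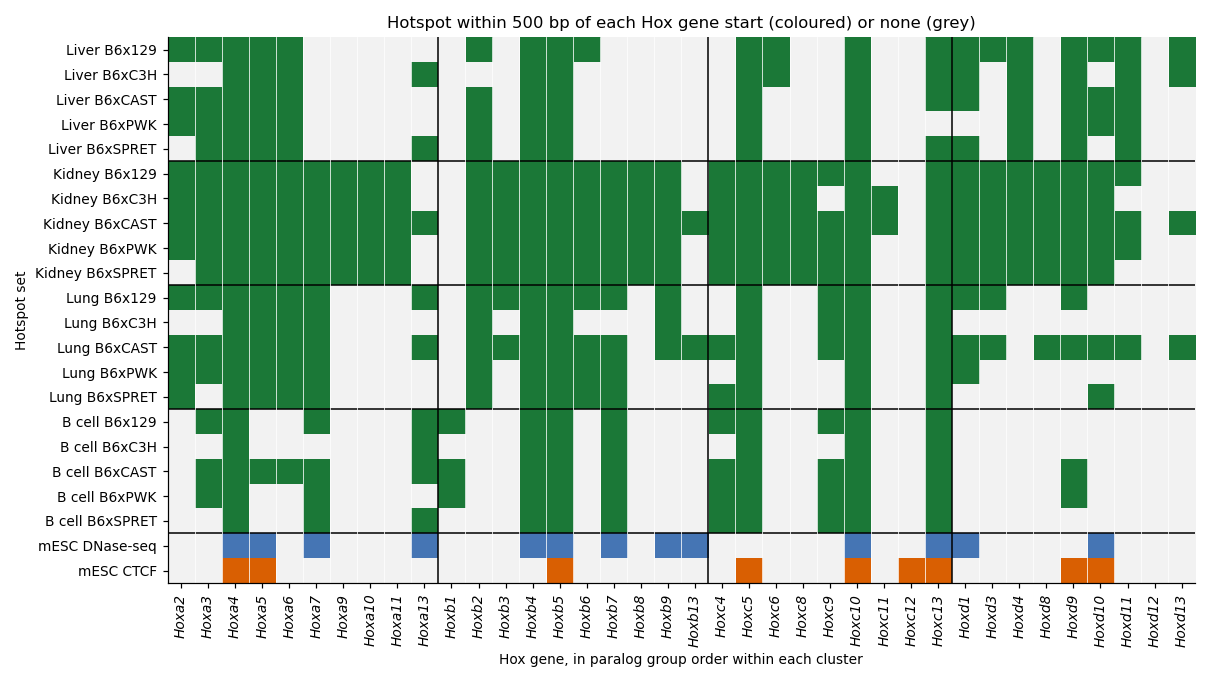
Hotspots within 500 bp of each Hox gene start (horizontal axis, by cluster and paralog group) in the 20 adult sets and the mESC DNase-seq and CTCF sets (vertical axis), coloured where present. The kidney rows are filled in all 5 hybrids at 28 of the 38 starts, and 5 starts are filled in kidney rows alone.

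The starts of 5 members were open in all 5 kidney sets and no other adult set, and these were called more often open in kidney by Fisher's exact test (two-sided p = 6.45e-05 each, adjusted p = 0.0130 over 21755 genes). Genes called in that direction made up 0.4% of all genes. The 5 were Hoxa9 (chr6:52223100-52231089), Hoxa10 (chr6:52231197-52240854), Hoxa11 (chr6:52242106-52245810), Hoxb8 (chr11:96281905-96285315) and Hoxc8 (chr15:102990607-102994111). Each start was that of a chosen transcript, and the outermost 5′ ends of Hoxa9 and Hoxa10 lie 3719 and 5915 bp away. That of Hoxa10 lies beside Hoxa CTCF 8, a site open in all 20 adult sets, so kidney-only opening holds for the start used. Hoxd8, open in 5 kidney sets and 1 lung set, missed the threshold at an adjusted p of 0.0504. With any 1 hybrid left out, 0 members were called in kidney. Each of the 5 called starts was then still open in all kidney sets and no other. Fewer sets raise the smallest possible p, so this loss cannot show dependence on 1 hybrid. Exchanging tissues within hybrids also left 0 members called, with a smallest possible p of 0.000977. With the 75000 highest-scoring hotspots of each set Hoxb8 was still called, and Hoxa9, Hoxa10, Hoxa11 and Hoxc8 were not.

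Hoxa9, a regulator of posterior patterning and of blood stem cells, had 51.6%, 57.7%, 81.3%, 45.6% and 82.8% of its window inside kidney hotspots. The highest value in any other tissue was 13.5%, in B6xCAST B cells. Hoxa10, which patterns the posterior skeleton and the uterus, gave 57.2%, 44.8%, 67.7%, 41.4% and 44.2% in kidney and at most 6.23% elsewhere. For both genes every kidney set lay above every other set.

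Hoxa11, which acts with its group 11 paralogs in the outgrowth of the ureteric bud, was covered at 15.3%, 11.9%, 37.2%, 22.4% and 9.44% in kidney. Here the groups overlapped, because B6xPWK B cells reached 18.8%. Its promoter, printed above, was open in kidney alone, while the covered length around it was small.

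Hoxb8, known for a role in microglia and grooming behaviour, was the most fully open member in kidney, at 87.2%, 96.5%, 99.1%, 49.5% and 52.8% of its window. Lung reached 28.2% in B6xCAST and no other lung set passed 11.02%. In liver 3 of 5 sets had no hotspot in the window. Hoxc8, its paralog, shared the open start but little else, with 3.13%, 2.05%, 2.11%, 2.04% and 2.45% of the window covered in kidney. The liver set of B6x129 reached 3.26%, and lung and B cells had 0 in all 10 sets. With only the 75000 highest-scoring hotspots of each set, the Hoxc8 start was open in no kidney set.

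At the ends of the kidney runs, coverage ranged from broad to narrow. Hoxa3, a gene of the pharyngeal arches and thyroid, was covered at 44.8%, 52.9%, 42.0%, 43.8% and 20.03% in kidney and at most 24.1%, in B6xCAST lung, elsewhere. Hoxb9, a gene of the thoracic skeleton, gave 44.7%, 36.2%, 39.3%, 25.3% and 16.6% in kidney, at most 5.07% in lung and 0 in liver and B cells. For Hoxb9 the kidney sets stood clear of the rest, and for Hoxa3 the lowest kidney set lay below B6xCAST lung.

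Hoxc4 and Hoxd1, the lowest listed members of their clusters, had open kidney starts but narrow ones. Hoxc4 was covered at 2.56%, 2.39%, 3.95%, 2.46% and 1.24% in kidney, and B6xCAST B cells reached 4.12%. Hoxd1 gave 6.34%, 4.85%, 6.39%, 4.69% and 4.67% in kidney, and B6xCAST lung reached 5.71%. In both genes the groups overlapped.

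Among the low paralog groups, Hoxb2, which acts in hindbrain segmentation, was covered at 47.5%, 98.6%, 95.7%, 67.5% and 51.5% in kidney. The next set was B6xCAST lung at 33.0%. Hoxa2, a hindbrain and second arch gene, broke the pattern. It was covered at 71.7%, 28.8%, 73.0%, 18.8% and 10.5% in kidney but at 41.9%, 5.63%, 92.9%, 16.3% and 8.89% in lung. Kidney and lung overlapped fully, and Hoxa2 was not called in kidney (adjusted p = 0.305).

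Hoxa5, which is required for lung and thoracic development, was covered at 78.4%, 84.0%, 57.8%, 71.8% and 27.1% in kidney and at 13.4%, 8.72%, 28.8%, 10.9% and 11.2% in lung. Its start was open in every liver, kidney and lung set, and in 1 B cell set. Hoxa6 had the same pattern of starts, with kidney windows at 48.95%, 98.9%, 81.6%, 66.4% and 25.2% and no other set above 18.3%. Hoxa7 was covered at 45.1%, 76.1%, 93.3%, 72.8% and 71.8% in kidney. All 5 kidney sets lay above all others for Hoxa6 and Hoxa7.

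In Hoxd, the largest windows in kidney were those of Hoxd9 and Hoxd8. Hoxd9 gave 32.0%, 87.7%, 84.1%, 71.5% and 25.1%, with 13.04% in B6xCAST lung the highest elsewhere. Hoxd8 gave 42.6%, 77.2%, 35.2%, 76.3% and 28.1%, with a highest other value of 13.3%. Hoxd10 ran from 19.3% to 64.3% in kidney and was at 0 in all 5 B cell sets. In Hoxc, Hoxc10 led at 28.7%, 31.01%, 61.1%, 80.0% and 14.1% against at most 7.28% elsewhere. Over the 38 members, every kidney set exceeded every other set for 18. The share of all genes with this property was not computed and neighbouring windows overlap, so this count is description only.

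The high-numbered ends went the other way or varied between hybrids. Hoxd12 was covered at 2.14%, 3.75%, 4.20%, 3.14% and 2.93% in kidney and was the only member called lower there (difference −1.05 points, adjusted p = 0.0288, background 0.716%). Hoxd13, a gene of digits and genital tubercle, was the only member called higher in liver, at 15.7%, 16.1%, 9.31%, 9.78% and 7.06% (adjusted p = 0.0222). In that direction 31.8% of all genes were called, and the highest set of all was B6xCAST lung at 16.4%. Neither the Hoxd12 nor the Hoxd13 call was made when coverage was divided by the genome-wide value. Hoxa13 had 57.9% and 45.2% in the B6xCAST and B6xPWK kidney sets and 4.01% to 5.13% in the other 3. In B cells it had 68.5% in B6x129 and 4.95% to 6.18% in the other 4.

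Hoxc11 was listed with hotspots in kidney alone, at 2.93%, 19.1%, 44.7%, 35.9% and 0%, and all 15 other sets were at 0. Hoxb13, distant from the rest of its cluster, was near 4% throughout, at 3.93% to 7.11% in kidney and 0% to 8.08% elsewhere. Its start was open only in the B6xCAST kidney and lung sets.

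Liver had no open start at Hoxa7 or Hoxb7, genes of the trunk, while 14 of the other 15 sets were open at each. For Hoxa7 this holds for the start used. Its outermost annotated 5′ end, 4349 bp away, lies in Hoxa CTCF 6, a site open in all 20 adult sets. Hoxa7 and Hoxb7 were both called lower in liver (Fisher's exact test, adjusted p = 0.0413, background 0.0735%), and no member was called higher (background 0.864%). With any 1 hybrid left out, or with exchange within hybrids, 0 were called lower. Both checks raise the smallest possible p, so they cannot show what the calls rest on. Neither gene was called with the 75000 highest-scoring hotspots. Liver windows of Hoxb7 were 4.77%, 2.19%, 0%, 0% and 0%, and its kidney windows ran from 21.2% to 72.4%. By coverage only Hoxa4 was called lower in liver, at 11.1%, 8.22%, 5.51%, 4.65% and 3.76% (adjusted p = 0.0416, background 1.86%). At Hoxb9 liver hotspots were at 0 in all 5 sets.

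In B cells the starts of Hoxa5, Hoxa6 and Hoxb2 were called less often open (adjusted p = 0.0262, 0.0262 and 0.0126). This direction held 4.36% of all genes, and 3 of 38 members is not far above it. At Hoxa5 the B cell windows were at 0 in 4 sets and at 2.27% in B6xCAST. At Hoxb2 no B cell start was open, and 14 of the 15 other sets were. By coverage 1 member was called lower, Hoxd1, at 0 in all 5 B cell sets (adjusted p = 0.0282, background 20.7%). The Hoxd cluster was the emptiest in B cells, with starts open in 2 of 45 start and set pairs, both at Hoxd9, against 25 in liver, 34 in kidney and 12 in lung. The B cell sets held 78387 to 156078 hotspots, against 152006 or more in every other set, and the part of that in the B cell counts was not tested. With any 1 hybrid left out, 0 to 2 members were called by start and 0 by coverage. Fewer sets raise the smallest possible p here too.

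In B cells 7 starts were open in every set, those of Hoxa4, Hoxb4, Hoxb5, Hoxb7, Hoxc5, Hoxc10 and Hoxc13. The start of Hoxb1, a gene of rhombomere identity, was open in 3 B cell sets and in no other adult set, and was not called (adjusted p = 0.121). No member was called higher in B cells by start (background 0.23%) or by coverage (background 5.62%). No member was called in lung by start (backgrounds 0.326% and 0.00919%) or by coverage (2.64% and 0.474%). No member's start was called less often open in kidney (background 0.0965%).

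No member was called between hybrids. With the 4 sets of a hybrid against the other 16, 0 of 38 members and 0% of 20663 genes were called in any hybrid (exact permutation test). The test did not hold tissue fixed, so differences between tissues enter its spread. It therefore cannot tell whether hybrids differ within a tissue. At an unadjusted p of 0.05 there were 2 members for B6xCAST and 0 for each other hybrid, beside 115 to 1088 genes.

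In mESCs most Hox starts were closed. DNase hotspots lay at 13 of 38 starts, against 63.5% of all protein-coding genes. They covered 1.70% of Hoxa, 3.25% of Hoxb, 2.32% of Hoxc and 1.22% of Hoxd, against 1.61% genome-wide. Counting only hotspots that covered the start itself left 5 starts. Hoxb9 had the widest share of its window open, 12.9%, followed by Hoxc13 at 10.2%. CTCF hotspots lay at 9 starts, beside 21.2% of all genes, and covered 2.78% to 4.34% of each cluster, 2.29 to 3.58 times the genome-wide share. Starts with both were Hoxa4, Hoxa5, Hoxb5, Hoxc10, Hoxc13 and Hoxd10. The labels list 2 mESC DNase-seq samples and 1 CTCF ChIP-seq sample. Only 1 set of each kind was used, so these values have no replicate check.

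Many CTCF sites of the mESCs were open in all adult tissues. The clusters held 40 CTCF hotspots, 9 in Hoxa, 13 in Hoxb, 11 in Hoxc and 7 in Hoxd. Of these, 16 (40%) overlapped a hotspot in all 20 adult sets, beside 19.3% of the 97980 CTCF hotspots genome-wide. At least 1 set was overlapped by 36 (90%), beside 61.1% genome-wide. With at least 50% of the CTCF hotspot covered, 5 (12.5%) were left in all 20 sets, beside 8.07%. All 5 sets were open at 29 sites in kidney, 23 in liver, 22 in lung and 17 in B cells. These shares were 72.5%, 57.5%, 55% and 42.5%, beside 34.0%, 33.0%, 26.3% and 23.8% of all CTCF hotspots. Of the 40, 26 (65%) held a match to the consensus, beside 51.8% of all CTCF hotspots. With at most 1 mismatch the order turned, to 6 (15%) beside 25.2%, so the direction depends on the cutoff. Matches lay on the strand of the Hox genes at 14 sites and on the opposite strand at 12. In Hoxb 8 of 11 lay opposite and in Hoxa 5 of 7 lay along the genes.

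Sites differed in how widely they were open. The sites between Hoxa11 and Hoxa13 (Hoxa CTCF 9), between Hoxb9 and Hoxb8 (Hoxb CTCF 8) and between Hoxd9 and Hoxd8 (Hoxd CTCF 6), printed above, were open in all 20 sets. Hoxb CTCF 6 lay in the 16-kb kidney run beyond Hoxb9, in kidney hotspots alone. Hoxa CTCF 4, near the start of Hoxa5, was open in all liver, kidney and lung sets but in 1 B cell set. Of the 40 sites 4, 1 in Hoxb and 3 in Hoxc, were in no adult set.

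**Figure D4:**
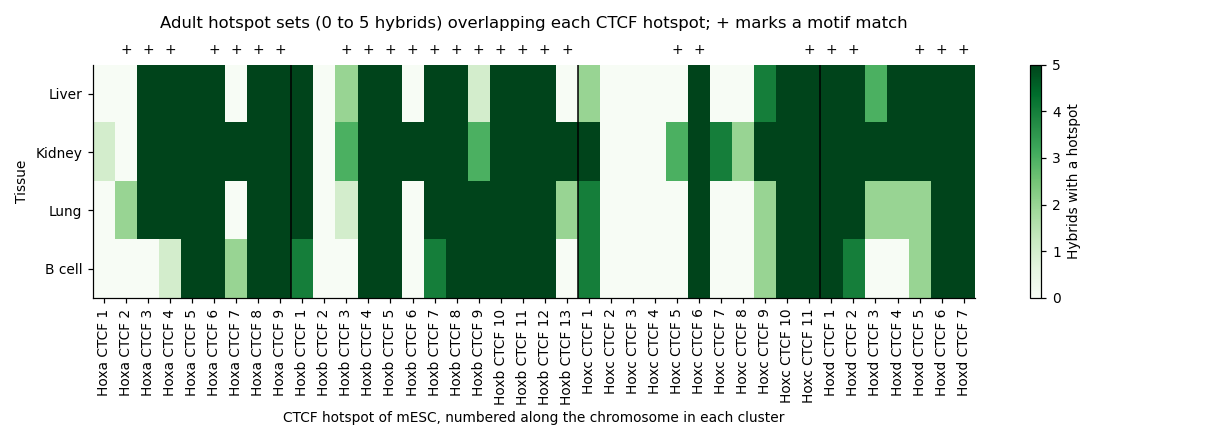
The 40 CTCF hotspots of mESCs in the clusters (horizontal axis) and the number of hybrids, 0 to 5, with an overlapping DNase hotspot in each adult tissue (vertical axis, colour). The 16 fully dark columns are sites open in all 20 sets, and + marks the 26 with a match to the CTCF consensus.

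Outside kidney, a large part of the open sites in the clusters were such CTCF sites. In liver 34.1% to 48.1% of the hotspots in the clusters overlapped a CTCF hotspot of mESCs, against 15.999% to 19.4% of liver hotspots genome-wide. In B cells the share was 30.9% to 68.0% against 24.8% to 32.3%, and in lung 20.7% to 46.3% against 14.8% to 20.4%. In kidney it was 13.01% to 17.7%, against 16.8% to 19.97% genome-wide. The kidney sets opened 29 to 33 of the 40 sites and added many hotspots besides, 175 to 255 in the clusters compared with 25 to 140 in the other sets. CTCF was mapped in mESCs alone, so its binding in these adult tissues was not measured.

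Promoters of 22 of the 38 members were matched by symbol in the RefSeq table. Their median GC content was 58.7%, beside 52.7% for all 27025 promoters, and their median ratio of observed to expected CpG was 0.705, beside 0.389. The printed promoters ranged widely, from a ratio of 0.280 at Hoxa9 to 0.970 at Hoxb8. The PBX-HOX letters TGATTNAT occurred on either strand in 2 of 22, Hoxa2 and Hoxd11, beside 3.36% of all promoters, and the homeodomain core TAATTA in 1, Hoxd11, beside 5.31%.

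The starts of noncoding genes in the clusters were also most often open in kidney. None was tested, and no share over all noncoding genes was computed. Some lie inside windows of coding members, such as Mir196b in that of Hoxa9, so this is not a separate result. Over 16 annotated genes, 58 of 80 start and set pairs were open in kidney, 19 in liver, 19 in lung and 15 in B cells. Hoxb5os was open in all 5 kidney sets and no other, and Mir196b, whose mature arm is printed above, in 5 kidney and 2 B cell sets. Mir196a-1 was open in 4 kidney sets alone. Mir10b was open in 5 liver and 4 kidney sets and in no lung or B cell set, a pattern close to that of its neighbour Hoxd4 (5, 5, 0 and 0). Hotairm1, at the low end of Hoxa, and Hoxd3os1 were open in all 20 sets, and Hotair in none.

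Genes around the clusters and partners of Hox proteins were open in most tissues. None of 10 flanking genes was called by start presence. By window coverage 1 of them, Skap1, was called higher in kidney (adjusted p = 0.00431, background 7.61%), 2 higher and 1 lower in liver (background 31.8% and 1.86%) and 3 lower in B cells (background 20.7%). The 9 cofactors of the PBX, MEIS and PKNOX families were open in 43, 45, 44 and 41 of 45 start and set pairs in liver, kidney, lung and B cells, with none called by start presence. The 12 Polycomb and Trithorax genes were open in all 60 pairs of every tissue. Of 6 upstream regulators 1 was called by start presence, the retinoic acid receptor gene Rarb, open in 15 of 15 sets outside B cells and in 0 of 5 B cell sets (adjusted p = 0.00277, background 4.36%). By coverage, 3 of the 6 were called higher in liver, 1 higher in lung (background 2.64%) and 3 lower in B cells, and none in kidney.

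RNA-seq counts were low, 283708 to 809317 per library (4 libraries each of liver, kidney and lung, and 5 of B cells), and their strand was doubtful. The study lists far more reads per library, so these totals do not give its sequencing depth. Protein-coding genes held 36.2% to 46.3% of the counts. In liver the markers Alb and Ttr were listed with only 95 to 767 and 4 to 32 counts. Selenop, the gene of an abundant liver plasma protein, was listed there with 26 to 68. Ccdc152, which overlaps Selenop on the opposite strand, had 18211 to 47637. The cause of the low counts was not tested. The kit keeps strand and the strand setting of the counting is not given in the sources used here. A count listed under a Hox gene may therefore come from the opposite strand, and Hox genes and their antisense partners cannot be told apart. Sums over both strands are given first for that reason.

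Summed over all annotated genes of the 4 cluster windows, kidney libraries had 2198 to 3036 CPM, counts scaled to a common library total. Lung had 805 to 1144, liver 45.8 to 114 and B cells 17.7 to 49.1. The order was kidney, lung and then liver and B cells, and neither kidney nor lung overlapped another tissue. By cluster, the kidney median was 1396 CPM in Hoxb, 1084 in Hoxa, 310 in Hoxd and 16.6 in Hoxc. The lung median was 497 in Hoxb and 349 in Hoxa but 2.62 in Hoxd and 1.305 in Hoxc. In kidney 3490 of the counts were listed on the strand opposite to the Hox genes and 1986 on the same strand.

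**Figure D5:**
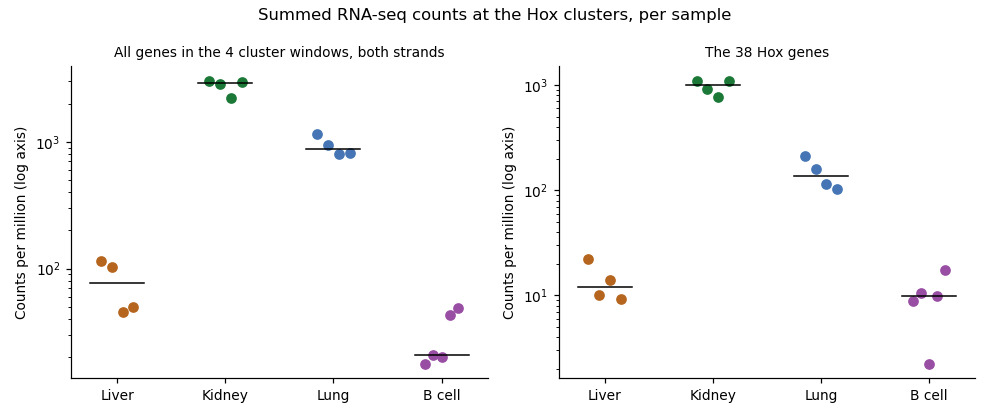
CPM (vertical axis, log scale) summed over all genes of the 4 cluster windows on both strands (left) and over the 38 Hox genes (right), with 1 point per library and the median as a line. The kidney libraries lie at 2198 to 3036 on the left and 775 to 1106 on the right, above all libraries of lung, liver and B cells.

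By listed name, 33 of the 38 members had at least 1 count and 4 passed the filter on low counts, Hoxa10, Hoxb3, Hoxb7 and Hoxd8. All 4 were called higher in kidney by edgeR's quasi-likelihood test, beside 23.2% of the 4479 genes tested. They passed the filter only because kidney was high, so their number carries no weight. Hoxa10 was listed with 197, 130, 150 and 253 counts in the kidney libraries and with 1 count in the other 13 together. Hoxb3 had 118 to 195 counts in kidney, 10 to 28 in lung, 1 to 3 in liver and 0 in B cells. It was the 1 member called higher in lung (background 29.6%) and lower in B cells (background 30.1%). Hoxb7 had 14 to 25 counts in kidney, 1 or 2 in lung and 0 in liver, and Hoxd8 13 to 19 in kidney and 0 in lung, liver and B cells.

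Of the antisense genes, Hoxb3os was listed with 328 to 570 counts in kidney, 139 to 174 in lung, 6 to 23 in liver and 2 to 16 in B cells. Hoxaas3 had 148 to 242 in kidney and 22 to 29 in lung, and Hoxd3os1 89 to 139 in kidney and 1 to 4 in lung. Hoxa9 had 3 to 18 counts in kidney and 0 elsewhere. By the labels the libraries came from 3 hybrids in liver, kidney and lung and from 4 in B cells, although for 1 B cell library the sample list of the study names another hybrid. Where a hybrid gave 2 the labels do not say whether these were separate mice, so the spread may be partly technical.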

How the data were processed

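The authors trimmed DNase-seq and ChIP-seq reads with Trimmomatic, aligned them with BWA, and merged the libraries of 1 hybrid in 1 tissue, and hotspot2 called the hotspots (mm10, FDR 5%). Each deposited hotspot carries a −log10 FDR value. RNA-seq reads (TruSeq Stranded total RNA with ERCC controls) were aligned with STAR and quantified by the authors with RSEM, which gave deposited expected counts, rounded here to whole numbers, and TPM values.

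Genes and starts were taken from GENCODE vM21 on GRCm38. A start was open with a hotspot within 500 bp (Fisher's exact test), window coverage used flanks of 2 kb, and tissues were compared over 20 sets by exact permutation of all 15504 choices of 5 sets (4845 for a hybrid, 252 for a pair of tissues), two-sided, with Benjamini-Hochberg adjustment over all genes tested, over 16 tests of clusters by tissue and over 24 of clusters by tissue pair. RNA counts were tested with edgeR's quasi-likelihood test on genes passing its filter on low counts. Values per hybrid are given for members called by start presence and for those at the ends of the longest runs of open starts, of other lists for at most 4 genes with the largest difference between tissues, and for RNA for members passing the filter. Hoxa2, Hoxa13, Hoxc10, Hoxc11, Hoxd8, Hoxd9, Hoxd12 and Hoxd13 were added after their values were seen. The members, lists and rule were chosen with earlier results of these data known. CTCF hotspots were searched on both strands for the consensus allowing 2 mismatches, and located by their midpoint in protein-coding genes.

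Alternatives were a stricter FDR, fewer hotspots per set, other windows and start definitions, exchange within hybrids, scaling by genome-wide coverage, each hybrid or library left out, DESeq2, limma on log2(TPM + 1) and no filter. The scripts were tested on simulated data. The hotspot sets themselves carry no read depth, and only their number and width are given. The study lists analyzed reads for each hybrid and tissue. B6xSPRET had the fewest among kidney sets, B6xCAST the most among lung sets and B6x129 the most among liver sets. Those reads were not used here, and the part of depth in the differences was not tested. The software was R 4.3.3 with DESeq2 1.42.0, limma 3.58.1 and edgeR 4.0.16, and Python 3.11.15 with pandas 2.3.3, scipy 1.17.1, matplotlib 3.10.9 and numpy 2.4.6.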

Additional observations from a re-analysis of the deposited data

Results flagged for a closer look

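In the groups of 5 sets, 28 values lay far from the other 4 by Dixon's criterion, 1 among the 4 clusters and 27 among members' windows. Chance flags about 1 in 20 groups.

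The B6xCAST lung set, which held more hotspots than any other lung set, had 10 of the flagged values, all above the other lung sets. Its window coverage was 28.75% at Hoxa5 (others at most 13.37%), 18.28% at Hoxa6, 23.25% at Hoxb7, 6.45% at Hoxb13, 2.34% at Hoxc4, 7.194% at Hoxc6, 4.653% at Hoxd4, 13.31% at Hoxd8, 4.023% at Hoxd11 and 16.42% at Hoxd13.

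In B cells, the B6x129 set had 68.46% at Hoxa13 (others 4.953% to 6.178%) and 8.621% at Hoxb5. The B6xCAST set had 2.268% at Hoxa5, 14.17% at Hoxa6, 0.6572% at Hoxb3 and 6.294% at Hoxd9, where the others were at or near 0. The B6xPWK set had 18.77% at Hoxa11 (others 2.596% to 6.334%). The B6xC3H set, which held the fewest hotspots, had 0.0% at Hoxb13 and 0.0% at Hoxd11.

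In liver, the B6x129 set covered 4.227% of the Hoxb cluster (others 2.355% to 2.791%), 47.17% of the Hoxa2 window (others 0% to 6.594%), 5.616% at Hoxc9 and 9.496% at Hoxd8. The B6xC3H liver set had 8.076% at Hoxb13, and the B6xPWK liver set was low at Hoxb4, at 3.025%. In kidney, the B6xCAST set had 7.109% at Hoxb13 and 8.176% at Hoxd13. The B6xC3H lung set had 2.221% at Hoxc12, with the other 4 at 0. The part of the number of hotspots in these values was not tested.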

How the results depend on the processing

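Coverage of the 4 clusters in the 4 tissues changed neither sign nor call under 4 alternatives or with any of the 5 hybrids left out. With any 1 hybrid left out, kidney minus the rest ranged over 31.47 to 35.88 points in Hoxa, 24.61 to 29.83 in Hoxb, 9.795 to 12.44 in Hoxc and 13.24 to 17.39 in Hoxd. Of tissue pairs without kidney, division by genome-wide coverage gave liver minus lung as -1.971 (Hoxa), -1.363 (Hoxb) and -0.1763 (Hoxc), liver minus B cell as -0.9924 (Hoxb) and -0.5634 (Hoxc), and lung minus B cell as -0.007527 (Hoxd). With the 75000 highest-scoring hotspots these were -2.119 (Hoxb), -0.4003 (Hoxc) and 0.8684 (Hoxd) for liver minus lung, -1.512 (Hoxb) and -0.8503 (Hoxc) for liver minus B cell, and -0.09045 (Hoxd) for lung minus B cell. At an FDR of 1% lung minus B cell in Hoxc was 0.006848. The Hoxc values and lung minus B cell in Hoxd changed sign and the rest passed the threshold. The cause was not tested.

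Members called by start presence in kidney were 2 with a window of 1000 bp, 8 from the outermost 5′ end and 0 with exchange within hybrids. Those lower in liver were 0 at an FDR of 1%, 0 where a hotspot had to cover the start, 1 at 1000 bp, 1 from the outermost 5′ end and 0 within hybrids. With the 75000 highest, 1 was higher and 0 lower in B cells, and of the 10 members called in any tissue 9 lost their call, although 7 were called higher in kidney and 2 lower in liver. Within hybrids 0 were lower in B cells. Without 1 hybrid the counts were 0 in all tissues and directions except 0 to 2 lower in B cells. Fewer sets raise the smallest possible p, so these counts cannot show dependence on 1 hybrid. By window coverage, members higher in liver were 0 with the 75000 highest, 0 with no flanks and 0 scaled by genome-wide coverage, and lower in kidney 0, 0 and 0. Scaled, 3 were lower in liver and 1 higher in B cells. Lower in B cells were 0 at an FDR of 1%, 0 with the 75000 highest and 2 within hybrids. Without 1 hybrid, 23 to 27 were higher in kidney, 0 to 1 lower in kidney, 0 to 1 higher and 0 to 1 lower in liver, and 0 lower in B cells.

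Of mESC DNase hotspots, 1 start had one among the 20000 highest and 5 were covered by one. With at least 50% of a CTCF hotspot covered, 14 were in every liver set, 10 lung, 8 B cell and 5 all 20. With at most 1 mismatch 6 (15%) held the consensus, beside 25.2% of all CTCF hotspots. For RNA, DESeq2 gave 1 member lower in lung and 4 lower in B cells. No filter gave 22 higher in kidney, 5 higher in lung and 4 lower in B cells. limma on log2(TPM + 1) gave 4 lower in liver, 2 in lung and 4 in B cells. Without 1 library 4 to 8 were higher in kidney, 1 to 3 higher in lung, 1 to 3 lower in B cells and 0 to 1 lower in liver. The labels give no replicate numbers shared between tissues. The exchange within hybrids is the analysis blocked by hybrid, and no block was used for RNA.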
